A study of Homo sapiens with 8 samples.

Results

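The genes described here encode the enzymes that make, interconvert and break down serine. They are the 3 enzymes of de novo serine synthesis (PHGDH, PSAT1 and PSPH), the 2 serine hydroxymethyltransferases (SHMT1 and SHMT2), serine racemase (SRR) and the serine dehydratases (SDS and SDSL). They were found by gene symbol, each present once in both expression tables, and are 8 of 57884 listed genes. Of these 8, 7 reached 1 FPKM in at least 2 libraries and were tested among 17994 genes, and SDS did not.

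The study profiled mRNA in hTERT-RPE1, a cell line from human retinal pigment epithelium that a telomerase transgene made immortal. Its title asks how ATF3, a transcription factor that stress induces, regulates genes in response to serine deprivation. There were 4 groups of 2 libraries: cells labelled ATF3(-/-) after 8 h in serine/glycine-free medium, cells labelled ATF3(-/-) in complete medium, wild-type cells after 8 h in serine/glycine-free medium, and wild-type cells in complete medium. All cells carry the telomerase transgene, and neither the kind of ATF3 allele nor the number of clones is given in the sources used here. The 2 libraries of each group are batches 1 and 2, independent experiments done a week apart, and each batch holds all 4 groups. The growth protocol on every sample describes 8 h in serine/glycine-free medium, also on those labelled complete medium, so the media compared here rest on the culture medium label and the series text. Values are FPKM (fragments scaled to transcript length and to the mapped fragments of the library), which allows levels to be compared between genes of different length.

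Cells take up serine or build it from phosphoglycerate, an intermediate of glycolysis. PHGDH oxidises phosphoglycerate, PSAT1 adds an amino group taken from glutamate, and PSPH removes the phosphate to release serine. SHMT1 in the cytosol and SHMT2 in mitochondria then convert serine to glycine and pass its side-chain carbon to folate, and both can run in reverse. SRR turns L-serine into D-serine, a co-agonist of NMDA receptors in the brain. SDS, an enzyme best known from liver, breaks serine down to pyruvate and ammonia, and SDSL is its close relative. The transcription factor ATF4, whose translation rises when amino acids are short, is known to bind and activate the genes of serine synthesis and SHMT2.

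The RefSeq promoter table (GRCh38.p14) held 5 of the 8 genes, namely PHGDH, PSAT1, SHMT1, SRR and SDS. The 250 bases upstream of the start site are printed for PHGDH and PSAT1, which were higher in serine/glycine-free medium in every pair of libraries, and for SHMT1, which was lower in every pair. The windows are chr1:119711684-119711933 on the plus strand for PHGDH, chr9:78296875-78297124 on the plus strand for PSAT1 and chr17:18363551-18363800 on the minus strand for SHMT1. Each reads 5′ to 3′ along the gene, and capitals mark CCAAT or its reverse complement ATTGG.
PHGDH: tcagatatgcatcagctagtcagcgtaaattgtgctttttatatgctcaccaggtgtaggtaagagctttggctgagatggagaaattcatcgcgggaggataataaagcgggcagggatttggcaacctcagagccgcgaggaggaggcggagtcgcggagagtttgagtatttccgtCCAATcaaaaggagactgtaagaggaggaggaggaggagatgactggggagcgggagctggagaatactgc
PSAT1: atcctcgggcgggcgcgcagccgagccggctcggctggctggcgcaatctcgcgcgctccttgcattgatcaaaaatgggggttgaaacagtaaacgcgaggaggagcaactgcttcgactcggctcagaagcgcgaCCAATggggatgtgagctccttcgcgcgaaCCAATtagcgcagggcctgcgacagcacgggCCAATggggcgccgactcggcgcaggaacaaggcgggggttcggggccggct
SHMT1: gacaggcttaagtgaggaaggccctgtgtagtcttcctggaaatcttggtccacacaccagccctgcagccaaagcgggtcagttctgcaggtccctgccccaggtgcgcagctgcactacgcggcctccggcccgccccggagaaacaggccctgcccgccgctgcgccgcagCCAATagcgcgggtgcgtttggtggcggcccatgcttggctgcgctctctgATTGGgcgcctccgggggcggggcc
CCAAT lay 71 bases before the start of PHGDH, 113, 83 and 52 bases before that of PSAT1, and 76 bases before that of SHMT1, with ATTGG 25 bases before the start of SHMT1. This motif is present in 32.0% of the 35116 listed promoters searched over the same length. The SDS window held 1 ATTGG and the SRR windows held no match. The C/EBP-ATF core TGATGNAA, the palindrome TGACGTCA, TGANTCA and the E-box CACGTG, searched on both strands, were found in none of the 5 genes' windows, against 3.14%, 1.65%, 6.57% and 6.34% of all listed promoters. These matches describe the letters of the windows only.

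Before the results, the libraries were checked against their labels. ATF3 mRNA was 4.45 and 57.3 FPKM in knockout-labelled cells without serine and glycine (batches 1 and 2), 3.38 and 20.8 FPKM in knockout-labelled cells in complete medium, 6.46 and 18.0 FPKM in wild-type cells without serine and glycine, and 3.47 and 3.65 FPKM in wild-type cells in complete medium. ATF3 mRNA was thus present in all 4 libraries labelled knockout and was above wild type in those of batch 2. FPKM of a whole gene does not show whether the mRNA is intact. The epithelial gene CDH1 was at 56.2 and 60.0 FPKM in the batch 2 libraries labelled knockout and at most 1.23 FPKM in the other 6. ESRP1 and EPCAM were also highest in those 2. VIM, a mesenchymal marker, was at 102 and 118 FPKM in them and at 598 to 1247 FPKM in the other 6. Not all markers set them apart. The mesenchymal FN1 was at 56.7 and 38.3 FPKM in them and at 20.5 to 58.7 FPKM elsewhere. The epithelial KRT19 was at 0.741 FPKM or less in batch 1 and at 216 to 375 FPKM in all 4 batch 2 libraries. Sums over markers are given for serine/glycine-free, then complete medium. For the 7 epithelial markers, knockout-labelled cells had 233 and 222 FPKM in batch 1 and 865 and 1086 FPKM in batch 2. Wild-type cells had 317 and 358 FPKM in batch 1 and 359 and 570 FPKM in batch 2. For the 7 mesenchymal markers, knockout-labelled cells had 1765 and 1572 FPKM in batch 1 and 186 and 177 FPKM in batch 2. Wild-type cells had 1288 and 1236 FPKM in batch 1 and 756 and 683 FPKM in batch 2. SPARC stood at 343 to 429 FPKM in batch 1 and at most 1.66 FPKM in batch 2. Of the 8 pigment epithelium markers, 1 (MITF) reached 1 FPKM in all libraries, OTX2 was listed at 0 throughout, and RPE65 stayed below 1 FPKM. Same-batch libraries correlated at r = 0.920 to 0.957 over genes and different-batch libraries at 0.768 to 0.815. The part of these differences in the results below was not tested. Estimates are also given without the 2 libraries with CDH1 at 56.2 and 60.0 FPKM, named CDH1-high below. Each knockout-labelled group then holds 1 library, which is assumed to vary like the other groups.

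The order of levels was similar across libraries. SHMT2 was the highest of the 8 genes in 8 of 8 libraries (70.2 to 171 FPKM), and SDS the lowest in 8 of 8. The 3 synthesis genes held ranks 2 to 5, and their order among themselves changed between libraries. PHGDH was above PSAT1 in 6 of 8 and PSPH above PSAT1 in 5 of 8. Their levels were not tested against each other. SHMT1 held rank 4 or 5, and was above PSAT1 in 3 libraries, all in complete medium. SDSL and SRR held ranks 6 and 7, with SDSL above SRR in 6 of 8 libraries.

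**Figure D1:**
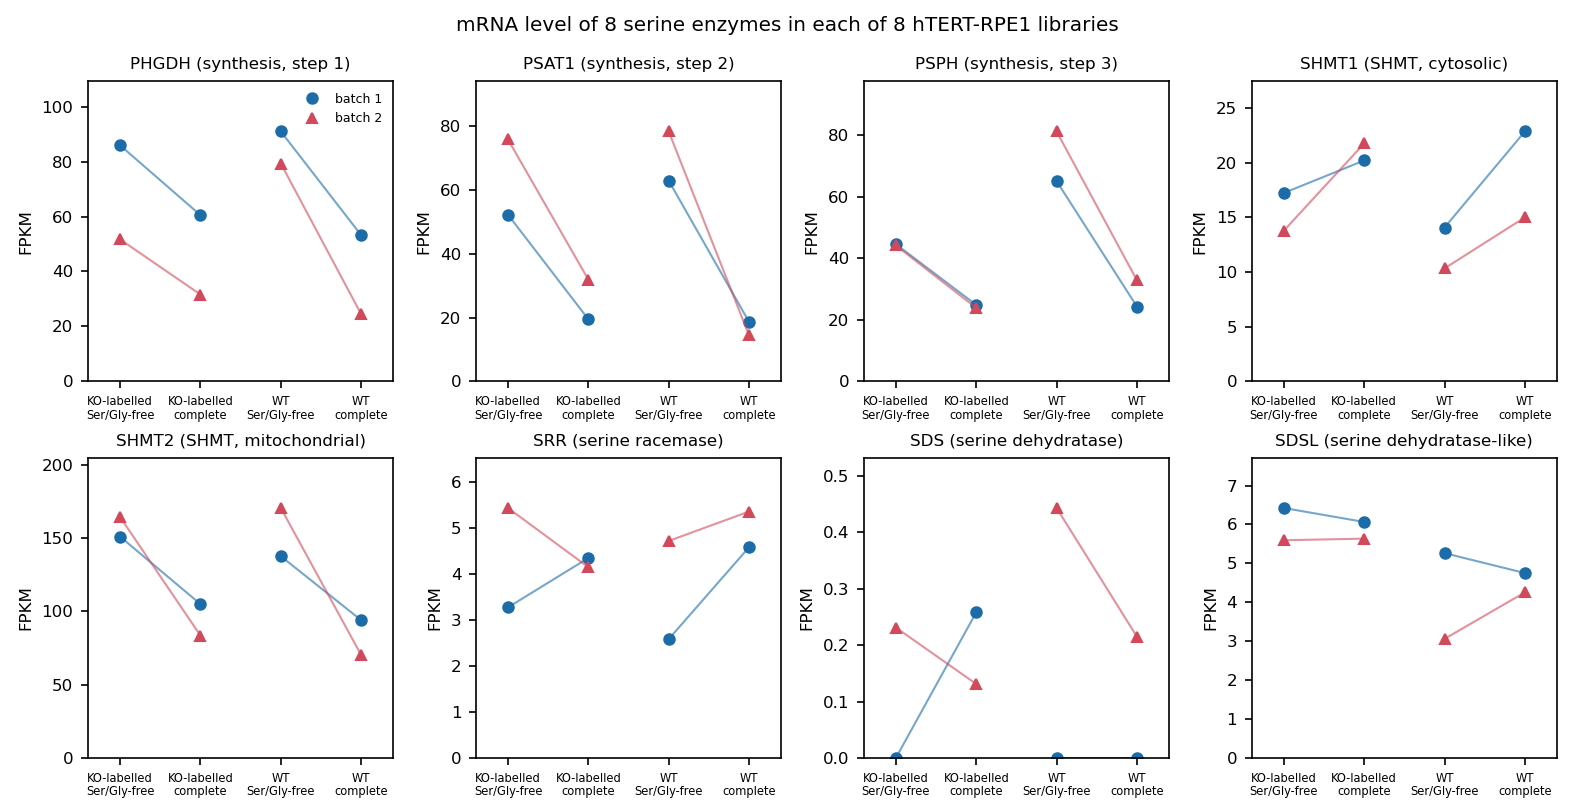
FPKM (vertical axes, starting at 0) of each enzyme gene in the 8 libraries, with batch 1 as circles and batch 2 as triangles and lines joining the 2 media within a batch and genotype. PHGDH, PSAT1, PSPH and SHMT2 stand higher in serine/glycine-free than in complete medium on all 4 lines, SHMT1 stands lower on all 4, and SRR and SDSL have lines in both directions.

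All 3 genes of serine synthesis were higher in serine/glycine-free than in complete medium in both genotypes and both batches. The same held for SHMT2, while its cytosolic counterpart SHMT1 was lower in all 4 pairs. In bulk RNA a lower level cannot be told apart from fewer cells that express the gene. None of these 5 differences passed the limma test after adjustment over all genes, and PSAT1 and PSPH came nearest. Of all genes tested, 14.6% were higher in all 4 pairs and 11.4% lower in all 4 pairs.

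PSAT1 (ENSG00000135069, hg19 chr9:80912059-80945009), the aminotransferase of the middle step, had the largest difference of the 7 tested enzymes. It stood at 52.2 and 75.8 FPKM in knockout-labelled cells without serine and glycine (batches 1 and 2), against 19.5 and 31.9 FPKM in knockout-labelled cells in complete medium. In wild-type cells PSAT1 stood at 62.9 and 78.3 FPKM without serine and glycine, against 18.6 and 14.4 FPKM in complete medium. Every serine/glycine-free library was above every complete-medium library. The ratios were 2.68 and 2.38 in knockout-labelled pairs and 3.38 and 5.44 in wild-type pairs. Averaged over the 4 pairs, on the log2(FPKM + 1) scale, the difference was 1.67 ± 0.19 (SE; limma adjusted p = 0.0712), which placed PSAT1 at rank 30 of 17994 genes by p.

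PSPH (ENSG00000146733, hg19 chr7:56078744-56119297), the phosphatase that releases serine, had ratios that differed little between batches. It stood at 44.6 and 44.2 FPKM in knockout-labelled cells without serine and glycine, against 24.8 and 23.9 FPKM in complete medium. In wild-type cells PSPH stood at 65.1 and 81.2 FPKM without serine and glycine, against 24.3 and 32.8 FPKM in complete medium. The media did not overlap, with ratios of 1.79 and 1.85 in knockout-labelled pairs and 2.68 and 2.47 in wild-type pairs. The mean difference was 1.09 ± 0.13 on the log2 scale (limma adjusted p = 0.0789, rank 35).

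Part of the PSPH coding sequence has a near copy in the unprocessed pseudogene PSPHP1 (hg19 chr7:55832490-55840981), so reads could be assigned to either. In the GENCODE 29 transcripts, the first 158 bases of PSPHP1 match the coding part of PSPH at 151 positions (95.6% identity), and a second stretch matches at 107 of 108. The first stretch is shown for both, with the 7 differing bases in capitals.
PSPHP1: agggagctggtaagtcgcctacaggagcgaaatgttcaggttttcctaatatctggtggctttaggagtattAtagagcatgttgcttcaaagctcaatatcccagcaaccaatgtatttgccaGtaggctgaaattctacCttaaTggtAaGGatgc
PSPH: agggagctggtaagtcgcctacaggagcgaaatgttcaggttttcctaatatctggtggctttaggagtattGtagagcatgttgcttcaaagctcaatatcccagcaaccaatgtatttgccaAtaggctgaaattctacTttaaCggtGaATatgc
PSPHP1 was listed at 0 in all 4 libraries of batch 1. In batch 2 it was at 3.42 FPKM in knockout-labelled cells without serine and glycine, against 1.23 FPKM in complete medium, and at 4.10 FPKM in wild-type cells without serine and glycine, against 2.05 FPKM in complete medium. The copy thus followed the medium in batch 2 as PSPH did, at a level of 4.10 FPKM or less. Whether reads were exchanged between the pair was not tested. The PSAT1 and SHMT1 pseudogenes listed (PSAT1P1 to PSAT1P4 and SHMT1P1) were at 0.191 FPKM or less in every library.

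PHGDH (ENSG00000092621, hg19 chr1:120202421-120286838), the dehydrogenase that opens the pathway, differed less between media and more between batches. It stood at 85.9 and 51.7 FPKM in knockout-labelled cells without serine and glycine, against 60.5 and 31.6 FPKM in complete medium. In wild-type cells PHGDH stood at 90.9 and 79.3 FPKM without serine and glycine, against 53.2 and 24.5 FPKM in complete medium. The media overlapped across batches, since the batch 1 knockout-labelled library in complete medium (60.5 FPKM) was above the batch 2 knockout-labelled library without serine and glycine (51.7 FPKM). Within pairs the ratios were 1.42 and 1.63 in knockout-labelled cells and 1.71 and 3.24 in wild-type cells. The mean difference was 0.90 ± 0.17 on the log2 scale (limma adjusted p = 0.231, rank 127).

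The steps of the pathway did not keep a fixed proportion. The ratio of PHGDH to PSAT1 was 1.65 and 0.682 in knockout-labelled cells without serine and glycine (batches 1 and 2), against 3.11 and 0.991 in complete medium. In wild-type cells it was 1.45 and 1.01 without serine and glycine, against 2.86 and 1.70 in complete medium. The ratio was lower without serine and glycine in all 4 pairs, by factors of 0.529 and 0.688 in knockout-labelled pairs and 0.506 and 0.596 in wild-type pairs. The summed FPKM of the 3 synthesis genes was 183 and 172 in knockout-labelled cells without serine and glycine, against 105 and 87.4 in complete medium, and 219 and 239 in wild-type cells without serine and glycine, against 96.1 and 71.7 in complete medium.

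The serine hydroxymethyltransferases differed between the media in opposite directions. SHMT2, the mitochondrial enzyme, stood at 151 and 164 FPKM in knockout-labelled cells without serine and glycine, against 105.0 and 83.5 FPKM in complete medium. In wild-type cells SHMT2 stood at 138 and 171 FPKM without serine and glycine, against 94.0 and 70.2 FPKM in complete medium. The media did not overlap, and the ratios were larger in batch 2 (1.97 in knockout-labelled and 2.43 in wild-type cells) than in batch 1 (1.44 and 1.46). The mean difference was 0.83 ± 0.15 on the log2 scale (limma adjusted p = 0.231). The SHMT2 locus, chr12:57623110-57634498 in hg19, is listed jointly with NDUFA4L2, which was at 2.65 FPKM or less in every library.

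SHMT1, the cytosolic enzyme (ENSG00000176974, hg19 chr17:18231187-18266856), stood at 17.2 and 13.8 FPKM in knockout-labelled cells without serine and glycine, against 20.2 and 21.7 FPKM in complete medium. In wild-type cells SHMT1 stood at 14.1 and 10.3 FPKM without serine and glycine, against 22.8 and 15.0 FPKM in complete medium. It was lower without serine and glycine within each pair, at 0.853 and 0.633 of the complete-medium level in knockout-labelled cells and 0.616 and 0.689 in wild-type cells, but the media overlapped across groups. The mean difference was −0.50 ± 0.15 on the log2 scale (limma adjusted p = 0.376, rank 784).

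The ratio of SHMT2 to SHMT1 therefore separated the media completely. It was 8.77 and 11.9 in knockout-labelled cells without serine and glycine, against 5.20 and 3.84 in complete medium. In wild-type cells it was 9.79 and 16.5 without serine and glycine, against 4.12 and 4.68 in complete medium. The ratio was 1.69 and 3.11 times as high in serine/glycine-free as in complete medium in knockout-labelled pairs and 2.38 and 3.53 times in wild-type pairs. A test was not made on this ratio, since it was formed after the values of both genes were known.

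**Figure D2:**
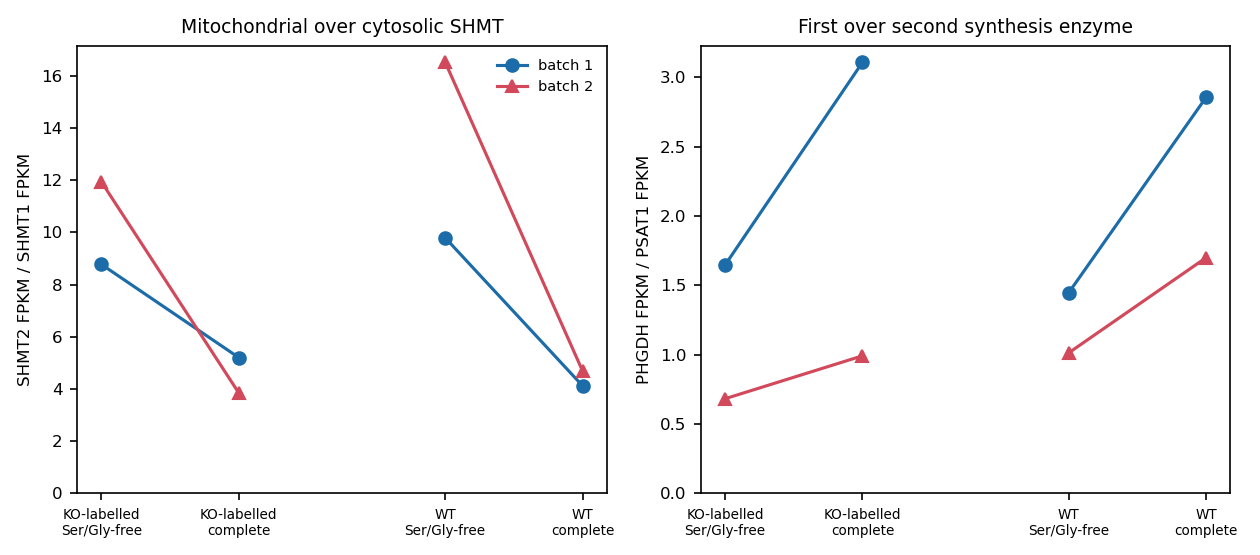
SHMT2 over SHMT1 (left) and PHGDH over PSAT1 (right), as ratios of FPKM in each library, with batch 1 as circles and batch 2 as triangles and lines joining the media within a batch. SHMT2 over SHMT1 is at least 8.77 in the serine/glycine-free libraries and at most 5.20 in complete medium, and PHGDH over PSAT1 is lower without serine and glycine on all 4 lines.

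The racemase and the dehydratases were low and had no common direction. SRR stood at 3.27 and 5.43 FPKM in knockout-labelled cells without serine and glycine, against 4.35 and 4.14 FPKM in complete medium. In wild-type cells SRR stood at 2.58 and 4.72 FPKM without serine and glycine, against 4.58 and 5.35 FPKM in complete medium. It was lower without serine and glycine in 3 of 4 pairs, with a mean log2 difference of −0.20 ± 0.19 (limma adjusted p = 0.796). The listed SRR locus, chr17:1963133-2284352 in hg19, is shared by 14 listed genes, among them SMG6 and the ribosome maturation factor TSR1, so reads could be split with its neighbours. SMG6 was at 3.09 to 9.06 FPKM and SNORD91B at 317 to 1355 FPKM. TSR1 was at 17.4 to 30.3 FPKM and was higher without serine and glycine in 4 of 4 pairs. The part of these neighbours in the SRR values was not tested.

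SDSL, the dehydratase-like enzyme, stood at 6.42 and 5.59 FPKM in knockout-labelled cells without serine and glycine, against 6.06 and 5.64 FPKM in complete medium. In wild-type cells SDSL stood at 5.26 and 3.06 FPKM without serine and glycine, against 4.75 and 4.25 FPKM in complete medium. The media overlapped, and the mean log2 difference was −0.05 ± 0.17 (95% interval −0.46 to 0.37; limma adjusted p = 0.968). SDS was listed at 0 and 0.231 FPKM in knockout-labelled cells without serine and glycine and at 0.258 and 0.131 FPKM in complete medium, and at 0 and 0.443 FPKM in wild-type cells without serine and glycine and at 0 and 0.215 FPKM in complete medium. SDS shares its listed locus (chr12:113830250-113876081 in hg19) with SDSL, and the level of serine dehydratase was too low in these cells to compare between media.

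**Figure D3:**
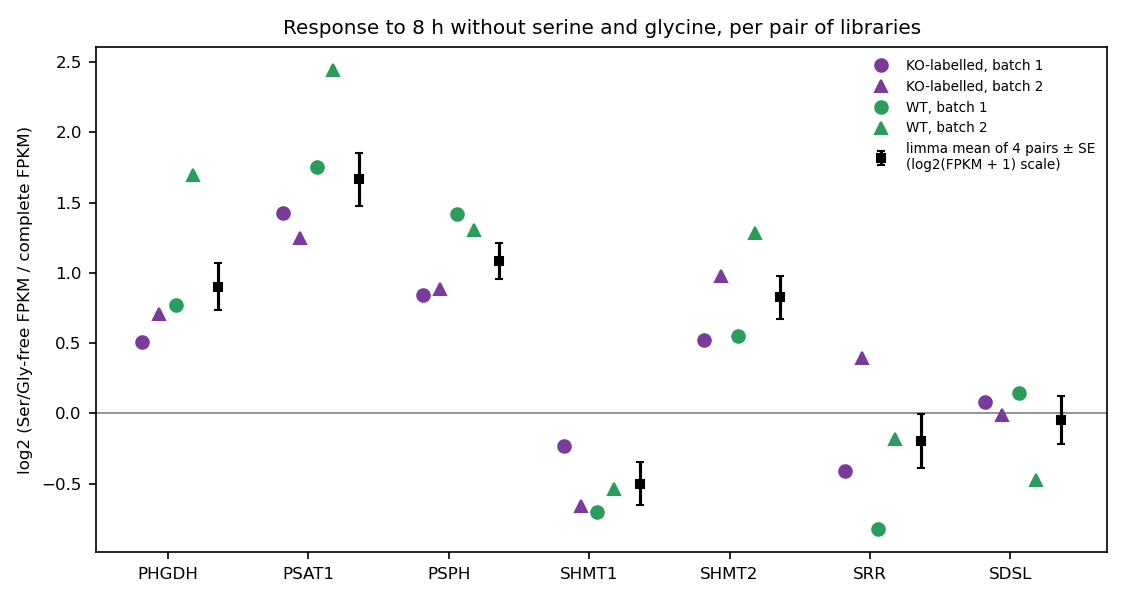
Difference between serine/glycine-free and complete medium for the 7 tested enzymes, as the log2 ratio of FPKM in each pair (purple, knockout-labelled; green, wild type; circles, batch 1; triangles, batch 2) and the limma mean of 4 pairs ± SE on the log2(FPKM + 1) scale (black squares). PSAT1 has the largest mean (1.67), PSPH, PHGDH and SHMT2 lie between 0.83 and 1.09, and all 4 points of SHMT1 lie below 0.

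Over the 4 pairs, 0 of the 7 tested enzymes passed the adjusted limma threshold of 0.05, against 0.133% of all genes tested. At an unadjusted p under 0.05 there were 5 (PHGDH, PSAT1, PSPH and SHMT2 higher, SHMT1 lower), against 10.0% of all genes. PSAT1, PSPH and SHMT2 were 3 of 7 whose 4 serine/glycine-free libraries all lay above the 4 complete-medium libraries, which held for 1.79% of genes; none of the 7 lay below throughout, as 0.945% of genes did. With 2 experiments the fit had 3 residual degrees of freedom. Fitting without the 2 CDH1-high libraries was an alternative named with earlier results of these data known. Only the wild-type groups then held 2 libraries, so the sizes alone are given. The mean log2 differences were 1.71 for PSAT1, 1.08 for PSPH, 0.85 for PHGDH, 0.71 for SHMT2 and −0.40 for SHMT1. Under a replicate block for each genotype and batch, PSPH passed (limma adjusted p = 0.0428), and without the wild-type complete-medium library of batch 1 PSAT1 passed (log2 difference 1.88 ± 0.15, limma adjusted p = 0.0451). With protein-coding genes only, a choice made after seeing the data, both passed (PSAT1 adjusted p = 0.0236, PSPH 0.0301). Over the 19 alternatives the limma adjusted p ran from 0.0236 to 0.597 for PSAT1 and from 0.0301 to 0.946 for PSPH.

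In the mean of the 2 batches, the synthesis genes had the same order within each genotype. In wild-type cells of batch 2 alone, PHGDH (1.66) was above PSPH (1.28). In knockout-labelled cells the log2 difference between media was 1.30 ± 0.27 for PSAT1, 0.84 ± 0.18 for PSPH and 0.60 ± 0.24 for PHGDH, with limma adjusted p from 0.794 to 0.892. In wild-type cells it was 2.03 ± 0.27 for PSAT1, 1.33 ± 0.18 for PSPH and 1.21 ± 0.24 for PHGDH, with limma adjusted p of 0.192, 0.208 and 0.492. SHMT2 differed by 0.74 ± 0.22 in knockout-labelled and 0.91 ± 0.22 in wild-type cells, and SHMT1 by −0.42 ± 0.21 in knockout-labelled and −0.58 ± 0.21 in wild-type cells. In knockout-labelled cells 0 of 7 enzymes passed the limma test after adjustment (0.0167% of genes) and 4 at an unadjusted p under 0.05 (5.59% of genes). In wild-type cells 0 of 7 passed after adjustment (0.0556% of genes) and 5 at an unadjusted p under 0.05 (5.64% of genes). Without the 2 CDH1-high libraries the knockout-labelled response was that of the batch 1 pair alone. It was 1.38 for PSAT1, 0.82 for PSPH, 0.50 for PHGDH, 0.52 for SHMT2 and −0.22 for SHMT1.

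The study's question concerns ATF3, so the enzymes were next compared between knockout-labelled and wild-type cells. The clearest difference among them was that of PSPH without serine and glycine, at 44.6 and 44.2 FPKM in knockout-labelled cells against 65.1 and 81.2 FPKM in wild-type cells. The knockout-labelled libraries were at 0.685 and 0.544 of wild type in batches 1 and 2, a log2 difference of −0.70 ± 0.18 (limma, adjusted p = 0.801, and 0.00853 before adjustment). In complete medium PSPH was at 24.8 and 23.9 FPKM in knockout-labelled cells and at 24.3 and 32.8 FPKM in wild-type cells, and the genotypes overlapped. The difference of −0.70 without serine and glycine does not pass the adjusted test.

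PSAT1 and PHGDH lay below wild type without serine and glycine and above it in complete medium. For PSAT1 the log2 difference between knockout-labelled and wild-type cells was −0.15 ± 0.27 without serine and glycine and 0.58 ± 0.27 in complete medium, where the batch 2 library labelled knockout was 2.22 times as high as wild type and that of batch 1 was 1.04 times as high. For PHGDH it was −0.34 ± 0.24 without serine and glycine (0.945 and 0.652 of wild type in batches 1 and 2) and 0.27 ± 0.24 in complete medium (1.14 and 1.29 times wild type). With the batch 2 wild-type library in serine/glycine-free medium left out, the PHGDH difference in that medium was 0.01, and without the knockout-labelled serine/glycine-free library of batch 1 that of PSAT1 was 0.0020. The batch 2 libraries labelled knockout in these comparisons are the ones with CDH1 at 56.2 and 60.0 FPKM.

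SHMT2 was close between genotypes, with a log2 difference of 0.04 ± 0.22 without serine and glycine (95% interval −0.49 to 0.57) and 0.20 ± 0.22 in complete medium (95% interval −0.33 to 0.73). These intervals leave room for differences of either sign. SHMT1 differed by 0.33 ± 0.21 without serine and glycine and 0.17 ± 0.21 in complete medium, SRR by 0.21 ± 0.27 and −0.18 ± 0.27, and SDSL by 0.47 ± 0.24 and 0.32 ± 0.24.

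Without serine and glycine, 0 of 7 enzymes passed the limma test between genotypes after adjustment (0.05% of genes) and 1, PSPH, at an unadjusted p under 0.05 (5.86% of genes). SHMT1, SRR and SDSL were higher in knockout-labelled cells in both batches (20.2% of genes), and PHGDH, PSAT1 and PSPH lower in both (27.8% of genes). In complete medium 0 of 7 passed after adjustment (0.0333% of genes) and 0 at an unadjusted p under 0.05 (4.78% of genes). There PHGDH, PSAT1, SHMT2 and SDSL were higher in both batches (20.4% of genes) and SRR lower in both (25.7% of genes). Without the 2 CDH1-high libraries each knockout-labelled group held 1 library, so the sizes alone are given. The difference between genotypes without serine and glycine was then −0.51 for PSPH, −0.43 for PSAT1 and −0.31 for PHGDH. In complete medium it was 0.0048 for PSPH, 0.23 for PSAT1 and 0.41 for PHGDH.

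**Figure D4:**
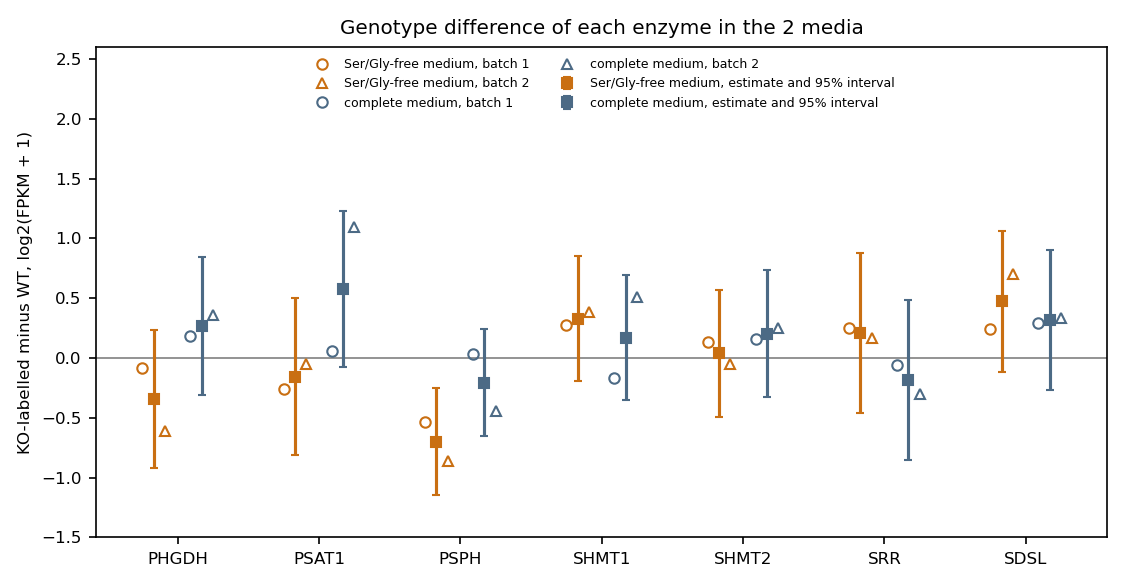
Difference between knockout-labelled and wild-type cells on the log2(FPKM + 1) scale for the 7 tested enzymes, in serine/glycine-free medium (orange) and complete medium (blue), with open symbols for each batch and squares with 95% intervals for the limma estimate. The interval of PSPH in serine/glycine-free medium lies below 0 before adjustment (estimate −0.70), and all other intervals span 0.

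The difference between the genotypes' responses was tested directly. The response of all 3 synthesis genes was smaller in knockout-labelled than in wild-type cells, by a log2 difference of −0.73 ± 0.38 for PSAT1, −0.61 ± 0.33 for PHGDH and −0.49 ± 0.26 for PSPH. The difference was negative in both batches for each, at −0.32 and −1.14 for PSAT1, −0.26 and −0.97 for PHGDH and −0.57 and −0.42 for PSPH. SHMT2 was also negative in both batches (−0.16 ± 0.31 in the mean), SRR positive in both (0.40 ± 0.39), and SHMT1 (0.16 ± 0.30) and SDSL (0.16 ± 0.34) differed in sign between batches. Of all genes, 25.8% were negative and 21.5% positive in both batches. In the related lists described below, 10 of 15 genes of the ATF4 amino acid response were negative and 1 positive in both batches. Of the 13 regulators, 9 were negative and 1 positive in both. The median differences were −0.32 and −0.45, against −0.02 over all genes, and 0 genes of either list were called. Of 17 genes that use serine or glycine, 6 were negative and 2 positive, and of 10 supply genes 5 and 0. The limma test passed 0 of 7 enzymes after adjustment (0.0611% of genes; adjusted p = 1.00 for each) and 0 at an unadjusted p under 0.05 (1.53% of genes), with 95% intervals of −1.66 to 0.19 for PSAT1, −1.43 to 0.20 for PHGDH and −1.12 to 0.14 for PSPH. Without the 2 CDH1-high libraries the differences were −0.66 for PSAT1, −0.71 for PHGDH and −0.51 for PSPH. The genotypes' responses are therefore not shown to differ at this number of experiments.

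Genes that use, supply or regulate serine were set beside the enzymes, from lists drawn up with earlier results of these data known. The 4 serine/glycine-free libraries were compared with the 4 complete-medium libraries within batches, and the median log2 difference over all tested genes was 0.02. Of all tested genes, 0.111% were called higher and 0.0222% lower. Of the 20 genes that use serine or glycine, 17 were tested and 1 passed the limma test, SARS, which loads serine on its tRNA and rose by 1.43 ± 0.10 (adjusted p = 0.0199). The median of the 17 was 0.34, and 0 were called lower. At an unadjusted limma p under 0.05, 6 of the 17 were higher and 0 lower. Of all tested genes, 6.16% were higher and 3.87% lower at that p. None of the 4 folate enzymes on the list passed the limma test. The mitochondrial MTHFD2, MTHFD1L and MTHFD2L, which work on the folate-bound carbon that SHMT2 releases, differed by 1.84 ± 0.22 (adjusted p = 0.0830), 1.09 ± 0.15 (adjusted p = 0.116) and 0.34 ± 0.19 (adjusted p = 0.619). The cytosolic MTHFD1 differed by −0.22 ± 0.18 (limma adjusted p = 0.735) and was lower without serine and glycine in 3 of 4 pairs. The glycine cleavage genes GLDC, AMT, GCSH and DLD ran from 0.06 to 0.43.

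Of the 11 genes of serine supply and transport, 10 were tested, with a median of 0.21. At an unadjusted limma p under 0.05, 5 were higher and 1 lower. After adjustment 1 was called higher and 0 lower. The gene called higher was SLC1A5, a transporter of glutamine, serine and other neutral amino acids. Its log2 difference was 1.30 ± 0.12 (limma adjusted p = 0.0417). The glycine transporter SLC6A9 (1.34 ± 0.15) and the serine transporter SLC1A4 (1.35 ± 0.22) did not pass, with adjusted p of 0.0659 and 0.189. In glycolysis, GAPDH and PGK1, which lead to the phosphoglycerate that PHGDH uses, differed by −0.08 ± 0.13 and −0.17 ± 0.12. PGAM1, which draws on the same phosphoglycerate for the rest of glycolysis, differed by −0.31 ± 0.12, and the mitochondrial serine carriers SFXN1 and SFXN3 by −0.36 ± 0.15 and −0.34 ± 0.20, with limma adjusted p of 0.470 or more.

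Of the 13 regulators, all were tested, with a median of 1.04. At an unadjusted limma p under 0.05, 6 were higher and 1 lower. After adjustment 2 were called higher and 0 lower. TRIB3, a pseudokinase that restrains ATF4, rose by 2.80 ± 0.22 (limma adjusted p = 0.0274), and CEBPG, a dimer partner of ATF4, by 1.29 ± 0.11 (adjusted p = 0.0366). ATF4 mRNA itself stood at 288 and 179 FPKM in knockout-labelled cells without serine and glycine, against 159 and 95.6 FPKM in complete medium, and at 300.4 and 171 FPKM in wild-type cells without serine and glycine, against 171 and 56.1 FPKM in complete medium. It was higher in all 4 pairs, with a mean difference of 1.04 ± 0.18 (limma adjusted p = 0.204). Of the 15 genes of the ATF4 amino acid response, all were tested, with a median of 1.39. Of these, 13 were higher in both batches, against 30.8% of all tested genes. Among the 13, STC2 was at 0.354 FPKM or less in all batch 1 libraries. At an unadjusted limma p under 0.05, 12 were higher and 0 lower. After adjustment 3 were called higher and 0 lower. These were SLC7A11, the cystine transporter (2.19 ± 0.15, limma adjusted p = 0.0175), PCK2, the mitochondrial carboxykinase (2.09 ± 0.15, adjusted p = 0.0199), and WARS, which loads tryptophan on its tRNA (1.05 ± 0.10, adjusted p = 0.0413). The calls of all 7 list genes called higher depended on the setting, since they passed in 4 (SLC1A5) to 8 (SLC7A11 and PCK2) of 19 alternatives. No alternative that left out 1 library kept SARS, SLC1A5, CEBPG or WARS. TRIB3 passed without the knockout-labelled complete-medium library of batch 2, and SLC7A11 and PCK2 without the wild-type complete-medium library of batch 1; leaving out any other single library ended each of these 3 calls.

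**Figure D5:**
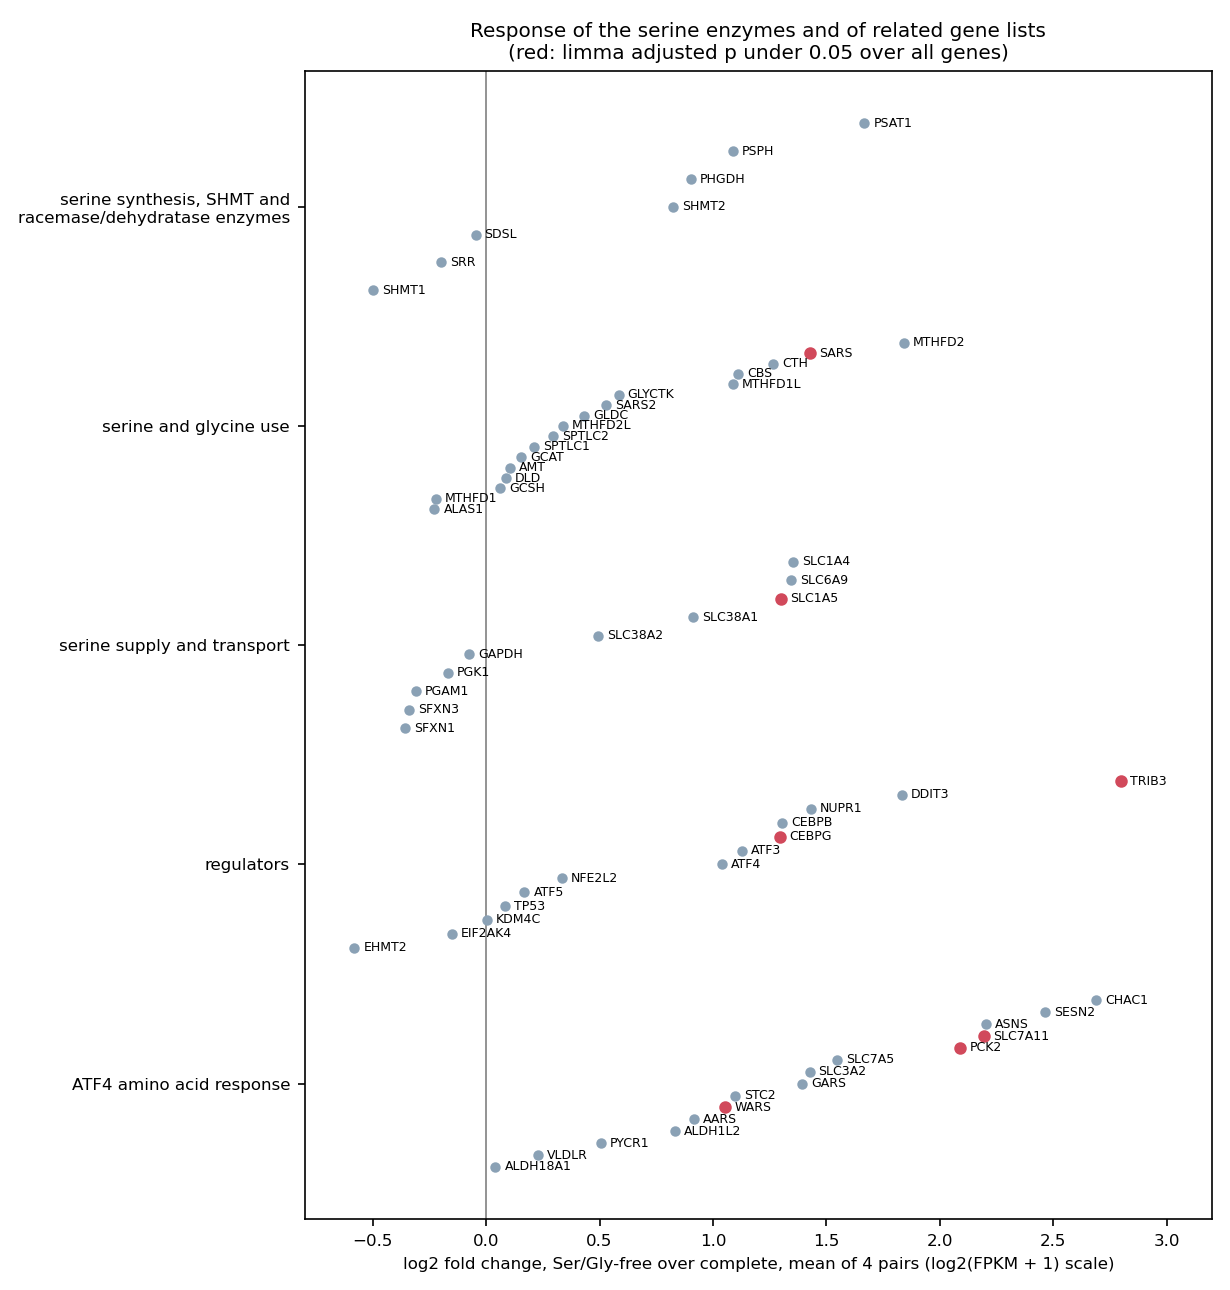
Mean log2 difference between serine/glycine-free and complete medium over 4 pairs, on the log2(FPKM + 1) scale (horizontal axis), for each tested gene of the serine enzymes and the 4 related lists, with genes past the limma adjusted threshold of 0.05 in red. PSAT1 at 1.67 lies among the ATF4 amino acid response genes, whose median is 1.39, and SHMT1 at −0.50 is the lowest of the serine enzymes.

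Between genotypes, 0 genes of the 4 lists passed the adjusted limma test in either medium. At an unadjusted p under 0.05 there were 6 of 55 tested list genes without serine and glycine, all lower in knockout-labelled cells, where 3.88% of all genes were lower and 1.98% higher at that p. In complete medium there were 10 of 55, with 5 lower and 5 higher, where 2.86% of all genes were lower and 1.92% higher. Among them, CTH, which makes cysteine from serine-derived cystathionine, was at 6.24 and 7.98 FPKM in knockout-labelled cells without serine and glycine, against 19.4 and 26.3 FPKM in wild-type cells (log2 difference −1.55 ± 0.29, limma adjusted p = 0.801). PGK1, the glycolytic kinase that makes phosphoglycerate, the substrate of PHGDH, was lower in knockout-labelled cells by a like amount in both media, with log2 differences of −0.73 ± 0.16 without serine and glycine and −0.72 ± 0.16 in complete medium (limma adjusted p = 0.801 and 0.857).

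The genes whose pattern was most like that of each enzyme were found by Pearson's r over the 8 libraries, each gene centred within its batch, among 9922 tested genes with a mean of at least 5 FPKM. These values are descriptions, since all points share the 4 groups, the batches and the normalization. The r reflects the shape of a pattern and not the size of the differences. In the batch 1 knockout-labelled pair, PDCD5 was at 78.1 FPKM without serine and glycine and 74.3 FPKM in complete medium. PHGDH was at 85.9 and 60.5 FPKM in the same libraries. The nearest to PSAT1 were SLC38A1, a neutral amino acid transporter (r = 0.994), MTHFD1L (r = 0.993) and ASNS, asparagine synthetase (r = 0.991). The nearest to PHGDH were PDCD5 (r = 0.991), IBTK (r = 0.981) and IFRD1 (r = 0.979), and the nearest to PSPH were SH3KBP1 (r = 0.991), DCAF17 (r = 0.983) and ZC3H15 (r = 0.983). For SHMT2 they were the gene listed as RP11-473I1.9 (r = 0.992), DDX10 (r = 0.990) and ZNF75A (r = 0.986). For SHMT1, which was lower without serine and glycine, they were ALKBH5, an RNA demethylase (r = 0.995), CARHSP1 (r = 0.990) and ACOT8 (r = 0.979).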

How the data were processed

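Each batch has its own table of FPKM that the authors deposited and normalized on its own, with 57884 genes and 4 libraries, and TopHat, Cufflinks, Cuffdiff and hg19 are named in the submitters' processing notes. The sources used here do not give versions or settings, nor whether complete-medium cultures had a wash and medium change, and the growth protocol text is the same for all samples. The number of reads is unknown, so no interval from counting error is given, and strand use is not stated. An exact 0 can be a failed estimate.

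The test covered the 17994 genes that reached 1 FPKM in 2 or more of 8 libraries. It used limma (3.58.1; R 4.3.3) on log2(FPKM + 1), a scale that understates changes of weakly expressed genes. The model had a mean for each of the 4 groups, the batch as block and a trended prior (3 residual and 2.97 prior degrees of freedom). Two-sided p-values were adjusted with the Benjamini-Hochberg method across the 17994 genes. The labels state that replicate numbers mark a shared batch, so the block joins all libraries of a batch. It does not pair the 2 media within a genotype, and the errors and p-values of the main fit are not those of a paired test. Deviations of same-numbered libraries correlated at 0.775 (knockout-labelled) and 0.766 (wild type) between the media of a genotype. Across genotypes they correlated at 0.650 to 0.676. The alternative with a block per genotype and batch pairs the media. The steps were also run on simulated data with batch means and independent noise for each library. Those data lack the closer tie within a genotype and batch, so they cannot show how the fit behaves under it.

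The members and lists were chosen with earlier results of these data known. Named genes are the 8 members, listed genes in their loci and copies, ATF3, ATF4, up to 4 genes per list with the smallest p, and the 3 genes most like each enzyme. Other list genes (MTHFD1, MTHFD2L, the glycine cleavage, glycolytic and SFXN genes) were named after their values were seen. Copies were aligned with BLAST 2.17.0. Loci are hg19, 1-based (the files' starts count from 0), and the 2 tables list the same IDs and symbols. The pseudocount, the filter on low values, the scaling, the block, the prior and the libraries included were varied as alternatives.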

Additional observations from a re-analysis of the deposited data

Results flagged for a closer look

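The genotype difference of PSAT1 was negative in both batches without serine and glycine and positive in both in complete medium. The media differed by −0.73 on the log2(FPKM + 1) scale. In batches 1 and 2 the PSAT1 values were −0.26 and −0.046 without serine and glycine, and 0.060 and 1.10 in complete medium. The same pattern held for PHGDH, with a difference of −0.61 between media. Its values in batches 1 and 2 were −0.081 and −0.61 without serine and glycine, and 0.18 and 0.36 in complete medium. SRR had the opposite pattern, higher in knockout-labelled cells without serine and glycine in both batches and lower in complete medium in both. Its difference between media was 0.40, with −0.062 in batch 1 in complete medium. These 3 differences are the same contrasts as the differences of responses given above. The direct limma test of these 3 differences did not pass (adjusted p = 1.00 each; unadjusted p of 0.101 for PSAT1, 0.115 for PHGDH and 0.345 for SRR).

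SDSL differed in sign between the batches, lower without serine and glycine in both batch 2 pairs and higher in both batch 1 pairs. The ratios in batches 1 and 2 were 1.06 and 0.993 in knockout-labelled cells and 1.11 and 0.719 in wild-type cells. The knockout-labelled pairs thus hardly differed between media. The difference of −0.29 between batches was not tested.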

How the results depend on the processing

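Of 812 enzyme results under alternatives, 781 kept their direction and their side of the threshold, 27 changed sign and 4 came to pass it. Over the 4 pairs, the count of enzymes called (0) became 1 under a replicate block per genotype and batch, 0 to 1 when single libraries were left out, and 2 with protein-coding genes only, an alternative chosen after seeing the data. With no replicate block it was 0, and PSAT1 kept its difference of 1.67 with a larger error (± 0.26, limma adjusted p = 0.597). In the other 5 comparisons the count stayed at 0 under all alternatives run.

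None of the differences that changed sign was called. The largest of them in the main fit was that of PHGDH between genotypes without serine and glycine, at −0.34. Leaving out single libraries, the log2 difference between genotypes without serine and glycine ran from −0.70 to 0.012 for PHGDH, −0.31 to 0.0020 for PSAT1, −0.22 to 0.30 for SHMT2 and −0.0044 to 0.43 for SRR. In complete medium it ran from −0.097 to 0.44 for SHMT1, −0.023 to 0.43 for SHMT2 and −0.45 to 0.086 for SRR. The response of SDSL ran from −0.078 to 0.14 in knockout-labelled cells, −0.37 to 0.12 in wild-type cells and −0.17 to 0.077 over both, and that of SRR from −0.27 to 0.27 in knockout-labelled cells. The difference of responses ran from −0.092 to 0.40 for SDSL, −0.11 to 0.43 for SHMT1 and −0.42 to 0.094 for SHMT2. With TPM scaling the SDSL response in knockout-labelled cells was −0.030. Without both batch 2 libraries labelled knockout, the genotype difference was −0.048 for SHMT2 without serine and glycine, and in complete medium 0.0048 for PSPH, −0.13 for SHMT1 and 0.060 for SRR. The causes were not tested.

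Over all genes and the 4 pairs, 20 were called higher and 4 lower, against 0 to 34 and 0 to 5 under the alternatives. In wild-type cells it was 7 and 3, against 0 to 11 and 1 to 9, in knockout-labelled cells 2 and 1, against 0 to 9 and 0 to 4. Between genotypes it was 2 and 7 without serine and glycine, against 0 to 6 and 0 to 9, and 2 and 4 in complete medium, against 0 to 7 and 0 to 8. For the difference of responses it was 5 and 6, against 0 to 7 each. A fit of only the groups compared could not be made for the 4-pair mean or the difference of responses, and a block per genotype and batch not for the genotype comparisons. Separate normalization of the tables, 2 experiments and unknown depth limit all values.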

Other observations

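Between genotypes in complete medium, 10 of 55 tested list genes had an unadjusted limma p under 0.05, 4 of them in the supply list, where 1.92% of all genes were higher and 2.86% lower at that p. SLC6A9, the glycine transporter, was higher in knockout-labelled than in wild-type cells, by a log2 difference of 0.86 ± 0.21, and the mitochondrial serine carrier SFXN1 was lower, by −0.70 ± 0.22, with PGK1 and PGAM1. Of the genes that use serine or glycine, GCAT, which breaks threonine down towards glycine, was lower by −0.69 ± 0.21 and CTH by −0.73 ± 0.29. Among the regulators and the ATF4 response, TRIB3 (1.15 ± 0.32), CEBPB (0.84 ± 0.22), PCK2 (0.59 ± 0.21) and PYCR1 (0.47 ± 0.17) were higher. In batches 1 and 2 the ratio of knockout-labelled to wild-type FPKM was 1.55 and 3.43 for TRIB3, 1.49 and 2.22 for CEBPB, 1.32 and 1.99 for PCK2, and 1.35 and 1.43 for PYCR1. The batch 2 library labelled knockout is the one with CDH1 at 60.0 FPKM, and its part in these values was not tested. Each of these 10 had the same sign in both batches, and none passed after adjustment (limma adjusted p = 0.857 each).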
